A study of Homo sapiens with 8 samples.

Results

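Keratin-associated proteins (KRTAPs) are encoded by 94 of the 60649 genes in the deposited tables, chosen as every gene whose name is KRTAP followed by a family number and a member number. All 94 are annotated as protein-coding in GENCODE version 44, and 90 of them have a single exon. They lie in 5 clusters on GRCh38, with 6 genes on chromosome 11p, 5 on chromosome 11q, 34 on chromosome 17, and 33 and 16 in a proximal and a distal cluster on chromosome 21. KRTAPs are small proteins of the hair shaft. In the cortex and cuticle of the hair they fill the space between the intermediate filaments built by hair keratins, and disulphide bonds between their cysteines and those of the keratins harden the fibre. The genes are normally switched on in keratinocytes that differentiate into hair, and colon epithelium is not known as a site of their expression.

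The RNA came from HCT116, a line of human colorectal cancer cells, and from UF1hypo, a single clone derived from it in which an exon of an allele of UHRF1 was removed. UHRF1 recognises hemimethylated DNA at replication forks and brings in the maintenance methyltransferase DNMT1. Each line was infected with a lentivirus carrying either a control hairpin (shScr) or a hairpin that targets UHRF1 mRNA (shUHRF1) and grown as a stable pool, with 2 libraries in each of the 4 groups (HCT116 shScr, HCT116 shUHRF1, UF1hypo shScr and UF1hypo shUHRF1) and 8 libraries in all. The comparisons ask how the KRTAP genes respond to loss of UHRF1 in cells that start with full or reduced UHRF1. A difference between UF1hypo and HCT116 cannot be told apart from any other feature of that clone. Nothing in the labels says that the replicates were separate cultures, so p-values measure the spread between these libraries, which may be technical.

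UHRF1 itself had a TPM (a transcript abundance scaled for gene length and library size) of 87.5 and 98.4 (shScr) and 31.7 and 32.7 (shUHRF1) in HCT116 cells, and 47.3 and 50.6 (shScr) and 34.1 and 21.1 (shUHRF1) in UF1hypo cells. Both knockdown libraries lay below both control libraries in each line. The log2 fold change was −1.50 in HCT116 (limma, adjusted p = 0.0564) and −0.84 in UF1hypo (adjusted p = 0.0406), so UHRF1 mRNA met both thresholds of a call in neither line. Aligned sequence ranged from 5.42 to 7.83 gigabases per library. The tables hold no read counts, and a TPM of 0 is therefore given as listed at 0. The 2 UF1hypo shUHRF1 libraries stood apart from each other, since their difference followed transcript GC content across 13781 genes (Spearman's rho 0.814), compared with −0.51 in UF1hypo shScr and −0.04 and −0.07 in the HCT116 groups (genes are not independent replicates). Of the 8 markers of colorectal epithelium, EPCAM, CDH1, KRT8, KRT18 and KRT19 had a TPM above 35 in every library, whereas CDX1, VIL1 and CEACAM5 stayed below 0.5.

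The sequences below are the 250 bases upstream of the annotated start of the KRTAP genes with the largest changes in KRTAP families 3, 2 and 4 that have a RefSeq start upstream of the coding sequence, followed by KRTAP3-3, the closest paralogue of KRTAP3-1. They are shown because UHRF1 maintains methylation at CpG dinucleotides, which stand in capitals. They were taken from RefSeq on GRCh38.p14 and read 5′ to 3′ on the strand of the gene. The windows are chr17:41009129-41009378 on the minus strand for KRTAP3-1, chr17:41060115-41060364 on the minus strand for KRTAP2-3, chr17:41083900-41084149 on the plus strand for KRTAP4-7 and chr17:40994165-40994414 on the minus strand for KRTAP3-3.
KRTAP3-1: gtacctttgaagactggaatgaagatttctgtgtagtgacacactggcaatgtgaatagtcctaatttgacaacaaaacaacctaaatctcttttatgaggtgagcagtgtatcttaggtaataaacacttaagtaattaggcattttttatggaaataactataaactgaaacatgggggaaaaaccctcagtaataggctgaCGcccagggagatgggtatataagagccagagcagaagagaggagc
KRTAP2-3: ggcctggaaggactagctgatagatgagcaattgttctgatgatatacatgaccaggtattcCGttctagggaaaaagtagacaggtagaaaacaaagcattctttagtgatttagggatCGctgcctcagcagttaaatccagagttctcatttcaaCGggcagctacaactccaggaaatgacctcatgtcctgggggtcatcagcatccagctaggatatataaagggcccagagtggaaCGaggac
KRTAP4-7: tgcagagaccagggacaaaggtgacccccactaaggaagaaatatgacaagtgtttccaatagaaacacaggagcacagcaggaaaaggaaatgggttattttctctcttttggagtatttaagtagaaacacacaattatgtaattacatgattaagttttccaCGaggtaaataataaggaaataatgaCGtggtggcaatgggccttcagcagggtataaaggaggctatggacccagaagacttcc
KRTAP3-3: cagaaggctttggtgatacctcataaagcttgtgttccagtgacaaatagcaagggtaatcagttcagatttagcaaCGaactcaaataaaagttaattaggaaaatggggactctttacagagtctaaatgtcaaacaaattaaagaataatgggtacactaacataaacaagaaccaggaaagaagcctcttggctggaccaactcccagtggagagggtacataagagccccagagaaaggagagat
These stretches hold 1, 4, 2 and 1 CpG. Windows of 300 bases, from 250 before the start to 50 after it, were matched by symbol for 80 of the 94 KRTAP genes. They held a median of 2 CpG (range 0 to 13), compared with 14 over all 35116 windows of the same length, and 97.5% of the KRTAP windows held at most 8 CpG, compared with 41.6% of all windows. The letters TATAA, searched on the strand of the gene with their first base 45 to 20 bases before the start, occurred in 42 of the 80 KRTAP windows (52.5%) and in 4.10% of all windows. In KRTAP3-1 and KRTAP2-3 they began at base −28, in KRTAP4-7 at base −32, and in KRTAP3-3 they did not occur in this position. In 8 of the 80 windows, including those of KRTAP4-9 and KRTAP4-16, the annotated start coincided with an ATG, so that the search covered a part of the gene other than in the remaining 72. The 11 matched genes that reached a TPM above 1 had the same median of 2 CpG as the 56 listed at 0 in every library. The data hold RNA only, and whether methylation at these CpGs changed was not tested.

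Most KRTAP genes gave no signal in any library. Of the 94 genes, 65 were listed at 0 in all 8 libraries, 17 rose above 0 but never above a TPM of 1 (highest value 0.981), and 12 exceeded 1 in at least 1 library. The number of KRTAP genes above 0 was 9 and 9 (shScr) and 12 and 13 (shUHRF1) in HCT116 cells, and 12 and 13 (shScr) and 25 and 20 (shUHRF1) in UF1hypo cells. The number above 1 was 1 and 1, 2 and 1, 3 and 2, and 11 and 6 in the same order. Only the UF1hypo shUHRF1 libraries therefore had more than 13 KRTAP genes above 0 or more than 3 above 1. As a share of all KRTAP genes, those above 0 made up 9.57% to 13.8% in the other 6 libraries and 26.6% and 21.3% in UF1hypo shUHRF1. The share of all protein-coding genes above 0 also was highest in that group, with 81.9% in both libraries, compared with 73.3% to 76.9% elsewhere. Their share above 1 was 65.5% and 65.4% in that group, compared with 61.1% to 61.9% elsewhere.

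**Figure D1:**
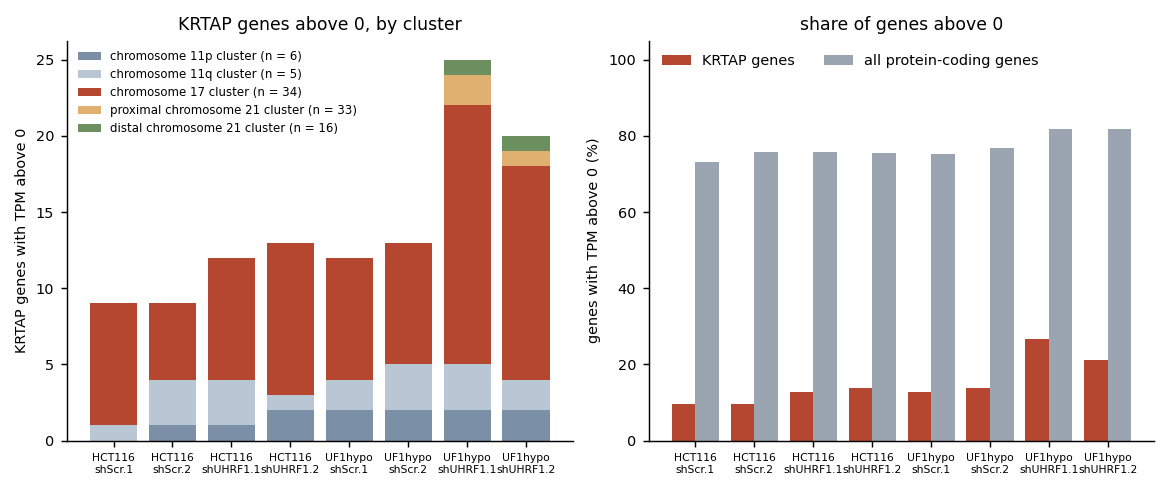
Left, the number of KRTAP genes with a TPM above 0 in each of the 8 libraries, stacked by cluster. Right, the percentage of the 94 KRTAP genes and of all protein-coding genes with a TPM above 0. The UF1hypo shUHRF1 libraries have 25 and 20 KRTAP genes above 0, the other libraries 9 to 13, and genes of chromosome 21 appear in UF1hypo shUHRF1 alone.

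The summed TPM of all KRTAP genes was 5.597 and 6.94 (shScr) and 8.54 and 7.49 (shUHRF1) in HCT116 cells, and 7.34 and 5.83 (shScr) and 739 and 483 (shUHRF1) in UF1hypo cells. KRTAP3-1 made up 91.1% and 89.4% of the sum in the UF1hypo shUHRF1 libraries. Without KRTAP3-1 the sum was 65.4 and 51.4 there and 3.72 to 6.94 in the other 6 libraries. Without KRTAP2-3 as well it was 20.6 and 13.6, compared with 1.33 to 2.75. The higher level in UF1hypo shUHRF1 thus was present in the remaining genes as a sum as well. In bulk RNA, a few cells with much KRTAP mRNA and many cells with little cannot be told apart.

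The response was unequal between clusters. The chromosome 17 cluster (positions 40993430 to 41315710) had a summed TPM of 5.95 and 5.08 in UF1hypo shScr, compared with 734 and 481 in UF1hypo shUHRF1, a ratio of the means of 110. In HCT116 its sum was 5.52 and 6.003 with shScr and 7.94 and 6.63 with shUHRF1. Of its 34 genes, 18 were above 0 and 11 above 1 in some library, and these 11 include all KRTAP genes above 1 but KRTAP5-1. The chromosome 11p cluster, which holds 6 genes of the cysteine-rich KRTAP5 family, had a sum of 1.28 and 0.376 in UF1hypo shScr, compared with 0.787 and 1.03 in UF1hypo shUHRF1, and these ranges overlap. The 5 KRTAP5 genes on chromosome 11q summed to 0.102 and 0.370 in UF1hypo shScr, compared with 1.17 and 0.137 in UF1hypo shUHRF1, so that the groups overlapped there too.

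Both clusters of chromosome 21 were listed at 0 in every gene in the 6 libraries outside UF1hypo shUHRF1. Of the 33 genes of the proximal cluster, which encodes the glycine- and tyrosine-rich KRTAPs together with others, only KRTAP7-1 (TPM 0.574) and KRTAP8-1 (0.608) in replicate 1 and KRTAP19-8 (0.497) in replicate 2 rose above 0. Of the 16 genes of the distal cluster, which encodes the KRTAP10 and KRTAP12 families, KRTAP10-2 alone was above 0, with a TPM of 0.981 and 0.105. KRTAP10-2 lies within TSPEAR on the same strand, and TSPEAR had a TPM of 0.141 and 0.166 in UF1hypo shScr, compared with 1.09 and 0.711 in UF1hypo shUHRF1. How reads were shared between these overlapping genes was not tested.

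Signals below a TPM of 1 rested on little sequence. Aligned bases, obtained as coverage times exon length, gave 104 values above 0 among the 90 single-exon genes, and 75 of these were below 1500 bases, with a minimum of 52 and a median of 858.5. Of the 104 values, 101 (97.1%) were whole numbers within 0.1 base, and 19 were exact multiples of 150. A single gene that is above 0 in a single library is therefore read here as a value and not as a difference between groups.

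Within the chromosome 17 cluster the genes with signal lay together. In the order along the chromosome, 23 genes from KRTAP3-3 to KRTAP4-1 occupy 191 kb, and 16 of them were above 0 and 11 above 1 in some library. The 11 genes that follow, from KRTAP9-1 to KRTAP17-1 over 126 kb, held only KRTAP16-1 and KRTAP17-1 above 0, with 0.139 and 0.517 in replicate 1 of UF1hypo shUHRF1. All 8 genes of the KRTAP9 family were listed at 0 in all libraries. The division between the stretches was chosen after the values were seen. Genes at 0 also lay among those with signal, among them KRTAP1-4, KRTAP1-5, KRTAP4-11 and the 4 genes from KRTAP4-5 to KRTAP4-2.

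**Figure D2:**
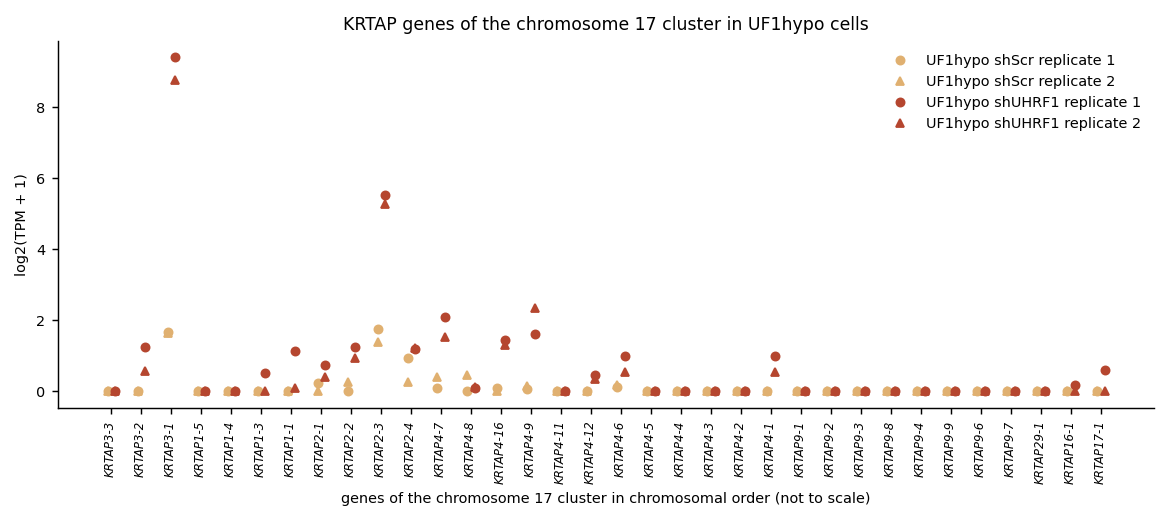
log2(TPM + 1) of the 34 genes of the chromosome 17 cluster in chromosomal order (gene positions not to scale) in the UF1hypo libraries, with shScr in yellow and shUHRF1 in red, circles for replicate 1 and triangles for replicate 2. KRTAP3-1 and KRTAP2-3 stand above the others, the KRTAP2 and KRTAP4 families show smaller differences, and the KRTAP9 family stays at 0.

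A gene was tested in a contrast when its TPM exceeded 1 in at least 1 of the libraries compared, and counted as called at an adjusted p below 0.05 (Benjamini-Hochberg, over all tested protein-coding genes) together with a log2 fold change beyond 1 in either direction. Fold changes are differences of mean log2(TPM + 1), which understate the change of genes with low TPM. On UHRF1 knockdown in UF1hypo, 12 KRTAP genes were tested and 5 were called higher (KRTAP3-1, KRTAP2-3, KRTAP4-9, KRTAP4-7 and KRTAP4-16), whereas 7.39% of all 13620 tested genes were called higher. None of the 12 was called lower, and 10 of them had an unadjusted p below 0.05, as did 3735 of all 13620 tested genes. The median log2 fold change of the 12 was 0.93, compared with 0.04 over all tested genes. Of these 12 genes, 9 passed the TPM filter through the UF1hypo shUHRF1 libraries alone, so that they had to be higher there. The number, the median and the single p-values of these genes are no support for a change. Of the called genes, KRTAP4-9, KRTAP4-7 and KRTAP4-16 are among the 9.

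Family 3 holds 3 genes for small cysteine-rich KRTAPs of the hair shaft. KRTAP3-1 (ENSG00000212901.4, minus strand, positions 41008521 to 41019324 of chromosome 17) had a TPM of 0.398 and 0 (shScr) and 3.37 and 0.871 (shUHRF1) in HCT116 cells, and 2.19 and 2.11 (shScr) and 673 and 431 (shUHRF1) in UF1hypo cells. Both UF1hypo shUHRF1 libraries lay far above the other 6, and the spread within the group was small beside that distance. The ratio of the mean TPM on knockdown in UF1hypo was 257, from 2.15 ± 0.0580 to 552 ± 171 (SD, n = 2 libraries). The log2 fold change of 7.42 (limma, SE 0.401, adjusted p = 1.56e-05) was the largest of all 13620 tested genes. By TPM, KRTAP3-1 ranked 178 and 264 among 19942 protein-coding genes in the UF1hypo shUHRF1 libraries and between 10947 and 15093 in the others.

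The reads of KRTAP3-1 amounted to 566, 0, 7032, 1298, 4431, 4061, 1328609 and 789048 aligned bases in the same order of libraries. GENCODE gives KRTAP3-1 a single-exon transcript of 608 bases (positions 41008521 to 41009128) and a spliced transcript of 656 bases with upstream exons at 41016790 to 41016861 and 41019266 to 41019324. The length implied by the ratio of coverage to FPKM was 608 bases in every library with signal. This is the length of the single-exon transcript, whose annotated start follows the sequence printed above. The last exon of the spliced transcript (positions 41008521 to 41009045) lies within the single exon. Which start the RNA came from was not tested. The closest paralogue, KRTAP3-3, shares 74.0% of the transcript sequence.

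KRTAP3-2 had a TPM of 0 and 0.150 in HCT116 shScr, was at 0 in the HCT116 shUHRF1 and UF1hypo shScr groups, and reached 1.36 and 0.489 in UF1hypo shUHRF1. Its log2 fold change in UF1hypo was 0.91 (limma, adjusted p = 0.0458), below the threshold of 1. KRTAP3-3, on the far side of KRTAP3-2, was above 0 in replicate 2 of HCT116 shUHRF1 alone, with 0.184.

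Family 2 encodes 4 closely related cysteine-rich KRTAPs of the hair cortex, and its member KRTAP2-3 was the only KRTAP gene with a TPM above 1 in all 8 libraries. KRTAP2-3 (ENSG00000212724.3, minus strand, positions 41059240 to 41060114) had a TPM of 3.47 and 4.69 (shScr) and 3.84 and 4.71 (shUHRF1) in HCT116 cells, and 2.40 and 1.62 (shScr) and 44.8 and 37.8 (shUHRF1) in UF1hypo cells. Its UF1hypo shUHRF1 libraries lay above all others, and the HCT116 groups overlapped. The mean TPM in UF1hypo went from 2.01 ± 0.549 to 41.3 ± 4.96 (SD, n = 2 libraries), a ratio of 20.5, with a log2 fold change of 3.82 (limma, SE 0.236, adjusted p = 3.27e-05). The aligned bases of KRTAP2-3 were 6983 and 4498 in UF1hypo shScr, compared with 127295 and 99538 in UF1hypo shUHRF1.

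KRTAP2-2 had 0 and 0.209 in UF1hypo shScr, compared with 1.37 and 0.907 in UF1hypo shUHRF1, with a log2 fold change of 0.95 (limma, adjusted p = 0.0492). KRTAP2-4 had 0.923 and 0.206 in UF1hypo shScr, compared with 1.28 and 1.35 in UF1hypo shUHRF1, with a log2 fold change of 0.60 (adjusted p = 0.162). Neither was called, although both UF1hypo shUHRF1 libraries lay above both shScr libraries in each gene. In HCT116 shScr, KRTAP2-2 had 0.700 and 0.079 and KRTAP2-4 0.519 and 0.768, so that these genes were not at 0 in the parental line. In HCT116 shUHRF1, KRTAP2-4 had 0.128 and 0.0763, both below both shScr libraries and thus opposite to its order in UF1hypo, and KRTAP2-2 had 0.119 and 0, overlapping with shScr. KRTAP2-1 stayed below 0.7 everywhere. The transcripts of this family share 81.9% to 84.0% of their sequence with their closest paralogue, and how reads were divided between them was not tested.

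Family 4 encodes 12 cysteine-rich KRTAPs made largely of short cysteine-containing repeats, and 5 of the 12 exceeded a TPM of 1. KRTAP4-9 (ENSG00000212722.7, plus strand, positions 41105332 to 41106488) had 0 and 0 (shScr) and 0.0322 and 0 (shUHRF1) in HCT116 cells, and 0.0390 and 0.103 (shScr) and 2.09 and 4.08 (shUHRF1) in UF1hypo cells. Its log2 fold change in UF1hypo was 1.89 (limma, SE 0.253, adjusted p = 0.00212). All 5 genes of this family above 1 passed the TPM filter through the UF1hypo shUHRF1 libraries alone and had to be higher there. Their p-values are therefore no support for a change. KRTAP4-9 differed from KRTAP3-1 and KRTAP2-3 in that replicate 2 of UF1hypo shUHRF1 gave the higher value.

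KRTAP4-7 (ENSG00000240871.5, plus strand, positions 41084150 to 41085141) had 0.065 and 0.319 (shScr) and 0.248 and 0.0867 (shUHRF1) in HCT116 cells, and 0.0752 and 0.334 (shScr) and 3.28 and 1.87 (shUHRF1) in UF1hypo cells. The log2 fold change in UF1hypo was 1.55 (limma, SE 0.258, adjusted p = 0.00565), with the limit of the filter given for KRTAP4-9. The call was lost without replicate 1 of UF1hypo shScr (adjusted p = 0.0569), with FPKM in place of TPM, where the log2 fold change was 0.93, and with the 4 UF1hypo libraries alone (adjusted p = 0.0550). KRTAP4-7 and KRTAP4-9 are each other's closest paralogues, with 92.1% identity between their transcripts, so that their separate values are uncertain.

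KRTAP4-16 (ENSG00000241241.1, minus strand, positions 41101502 to 41102209) was listed at 0 in both HCT116 shScr libraries, had 0 and 0.119 in HCT116 shUHRF1 and 0.0637 and 0 in UF1hypo shScr, and reached 1.73 and 1.47 in UF1hypo shUHRF1. Its log2 fold change in UF1hypo was 1.33 (limma, SE 0.189, adjusted p = 0.00273), which quantile normalization lowered to 0.93. Its transcript is 90.1% identical to that of KRTAP4-11, which was at 0 throughout. KRTAP4-1 was listed at 0 in all 6 other libraries and had 1.00 and 0.452 in UF1hypo shUHRF1, with a log2 fold change of 0.77 (adjusted p = 0.0470). KRTAP4-6 had 0.0846 and 0.135 in UF1hypo shScr, compared with 1.01 and 0.459 in UF1hypo shUHRF1, with a log2 fold change of 0.63 (adjusted p = 0.0940). Neither of these was called.

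Of the remaining genes above 1, KRTAP1-1, of a high-sulphur family of the hair cortex, was listed at 0 in UF1hypo shScr and had 1.18 and 0.061 in UF1hypo shUHRF1, so that its signal rested on replicate 1 (log2 fold change 0.60, limma, adjusted p = 0.250). KRTAP5-1, on chromosome 11p, was the only KRTAP gene above 1 in a library outside UF1hypo shUHRF1 other than KRTAP3-1 and KRTAP2-3. Its TPM was 1.25 and 0.129 in UF1hypo shScr, compared with 0.769 and 0.444 in UF1hypo shUHRF1, and the log2 fold change was 0.00 (adjusted p = 0.995). It overlaps the antisense transcript KRTAP5-AS1, and the sources used here do not say whether the libraries kept strand, so reads of both cannot be told apart.

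**Figure D3:**
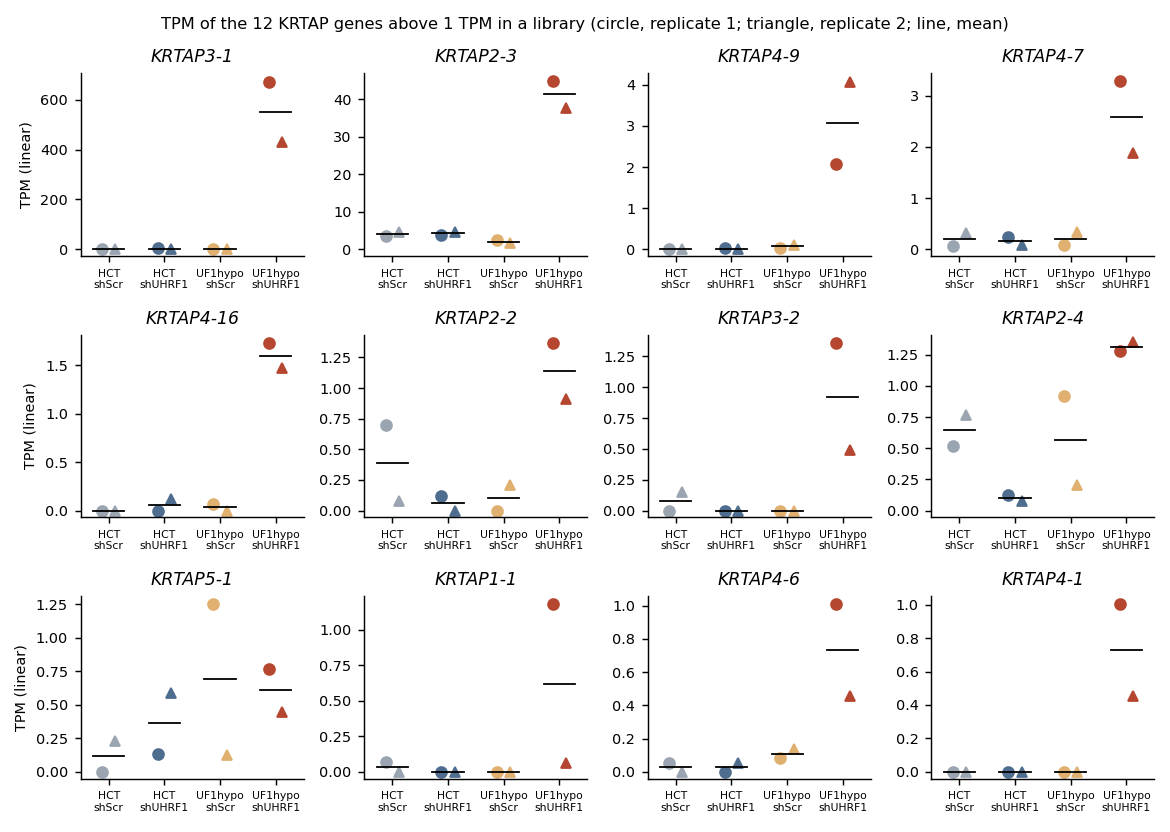
TPM (linear axis, a separate scale in each panel) of the 12 KRTAP genes above 1 in a library, with the 4 groups along the horizontal axis, circles for replicate 1, triangles for replicate 2 and a line for the mean. Both UF1hypo shUHRF1 libraries lie above both UF1hypo shScr libraries in all panels but that of KRTAP5-1, an order that the choice of genes largely fixed, since 9 of the 12 exceeded 1 in UF1hypo shUHRF1 alone (31.4% of all protein-coding genes above 0 show it).

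Without a TPM filter, 28 KRTAP genes were above 0 in a UF1hypo library. In 14 of them both shUHRF1 libraries lay above both shScr libraries, in none both below, and in 14 the groups overlapped, whereas 31.4% of all protein-coding genes above 0 had both shUHRF1 libraries above both shScr libraries and 15.6% had both below. Of the 28 genes, 12 were listed at 0 in both shScr libraries and could not lie below, compared with 8.39% of all protein-coding genes above 0 in these libraries. Of the 14, all but KRTAP10-2 are on chromosome 17, and 5 were listed at 0 in both shScr libraries. Among the 18 genes above 0 in both UF1hypo shUHRF1 libraries, 15 had the higher value in replicate 1, and 6 further genes were above 0 in replicate 1 alone of the 4 UF1hypo libraries, compared with 1 in replicate 2 alone. The matching shares over all protein-coding genes were not computed, so that these counts are not read as a trait of the KRTAP genes. Without replicate 2 of UF1hypo shUHRF1, the log2 fold changes of KRTAP1-1, KRTAP4-1, KRTAP3-2 and KRTAP2-2 were 1.12, 1.00, 1.24 and 1.11, compared with 0.60, 0.77, 0.91 and 0.95 with it. These genes exceeded a TPM of 1 in replicate 1 of UF1hypo shUHRF1 alone and passed the filter only through it. They had to be higher there, so that no conclusion is drawn from these values. With a correction for GC content, 5 KRTAP genes were called higher in UF1hypo, beside 6.78% of all tested genes. The part of the difference between these libraries in the KRTAP values was not tested beyond this.

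In HCT116, no KRTAP gene passed the test on UHRF1 knockdown. Only KRTAP3-1 and KRTAP2-3 could be tested, and 0 were called, whereas 0.0472% of all 12704 tested genes were called higher. An unadjusted p below 0.05 was found for 1 KRTAP gene, compared with 810 of the 12704. KRTAP3-1 had both shUHRF1 libraries above both shScr libraries, with a log2 fold change of 1.27 (limma, SE 0.395, adjusted p = 0.453). KRTAP2-3 had a log2 fold change of 0.06 (SE 0.237, adjusted p = 1.00). Of 20 KRTAP genes above 0 in an HCT116 library, both shUHRF1 libraries lay above both shScr libraries in 3 and below them in 1 (KRTAP2-4), whereas of all protein-coding genes 19.3% lay above and 25.5% below.

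The difference between the knockdown effects of both lines was tested as an interaction and called 5 of 12 KRTAP genes, all with a higher effect in UF1hypo, beside 4.54% of all 13781 tested genes. The filter fixed part of this count, since 9 of the 12 genes, KRTAP4-9, KRTAP4-16 and KRTAP4-7 among them, were above a TPM of 1 in UF1hypo shUHRF1 alone, which favours a higher effect in UF1hypo. The called genes were KRTAP3-1 (difference of log2 fold changes 6.15, limma, SE 0.566, adjusted p = 0.000826), KRTAP2-3 (3.76, SE 0.334, adjusted p = 0.000698), KRTAP4-9 (1.86, SE 0.358, adjusted p = 0.0232), KRTAP4-16 (1.25, SE 0.267, adjusted p = 0.0348) and KRTAP4-7 (1.58, SE 0.364, adjusted p = 0.0458). The calls of the family 4 genes were lost when any of the 4 HCT116 libraries or either UF1hypo shScr library was left out, which leaves 2 called genes, KRTAP3-1 and KRTAP2-3. The interaction and both knockdown contrasts share their libraries and are not independent.

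Between the control groups, UF1hypo shScr against HCT116 shScr, 3 KRTAP genes were tested and 0 were called, whereas 2.59% of all 12856 tested genes were called higher. An unadjusted p below 0.05 was found for 2 of the 3, compared with 2341 of the 12856. KRTAP3-1 was higher in both UF1hypo shScr libraries than in both HCT116 shScr libraries (log2 fold change 1.41, limma, SE 0.395, adjusted p = 0.0870). It was called under 4 of 15 alternatives, among them a pseudocount of 0.1 (adjusted p = 0.0470), GC correction (0.0243) and the 4 control libraries alone (0.00927). KRTAP2-3 was lower in both (log2 fold change −0.76, SE 0.237, adjusted p = 0.123). KRTAP5-1 overlapped between the groups (0.52, adjusted p = 0.488). Of 19 KRTAP genes above 0 in a control library, both UF1hypo shScr libraries lay above both HCT116 shScr libraries in 5 and below them in 2, whereas of all protein-coding genes 26.9% lay above and 32.0% below.

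Hair keratins, the filament proteins that KRTAPs embed, were examined beside them. Of 17 hair keratin genes, 8 were tested in UF1hypo and 5 were called higher, none lower, with a median log2 fold change of 1.22, beside 7.39% called higher and a median of 0.04 over all tested genes. Of the 8, KRT31, KRT34, KRT38, KRT39 and KRT85 passed the TPM filter through the UF1hypo shUHRF1 libraries alone and had to be higher there, so that the count and the median are no support for a change. KRT81, a type II hair keratin, had a TPM of 2.16 and 1.21 (shScr) and 3.10 and 2.22 (shUHRF1) in HCT116 cells, and 5.94 and 5.46 (shScr) and 427 and 361 (shUHRF1) in UF1hypo cells. Its log2 fold change in UF1hypo was 5.88 (limma, SE 0.240, adjusted p = 4.78e-06), and as in KRTAP3-1 both UF1hypo shUHRF1 libraries lay far above the other 6. KRT34 (log2 fold change 2.90, TPM 8.74 and 6.16 in UF1hypo shUHRF1), KRT85 (2.74, TPM 8.72 and 3.61) and KRT31 (1.24, TPM 2.05 and 0.823) were also called, as was KRT32 (1.19). KRT34 and KRT85 were at most 0.133 in each of the other libraries.

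In HCT116, 1 hair keratin was tested and 0 were called, beside 0.0472% of all tested genes. The interaction called KRT81 (5.42), KRT34 (2.94) and KRT85 (2.74) of 8 tested, beside 4.54% of all genes, and the same 5 of the 8 passed the filter through UF1hypo shUHRF1 alone. Between the control groups KRT81 alone of 3 was called higher (1.34), beside 2.59% of all genes.

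**Figure D4:**
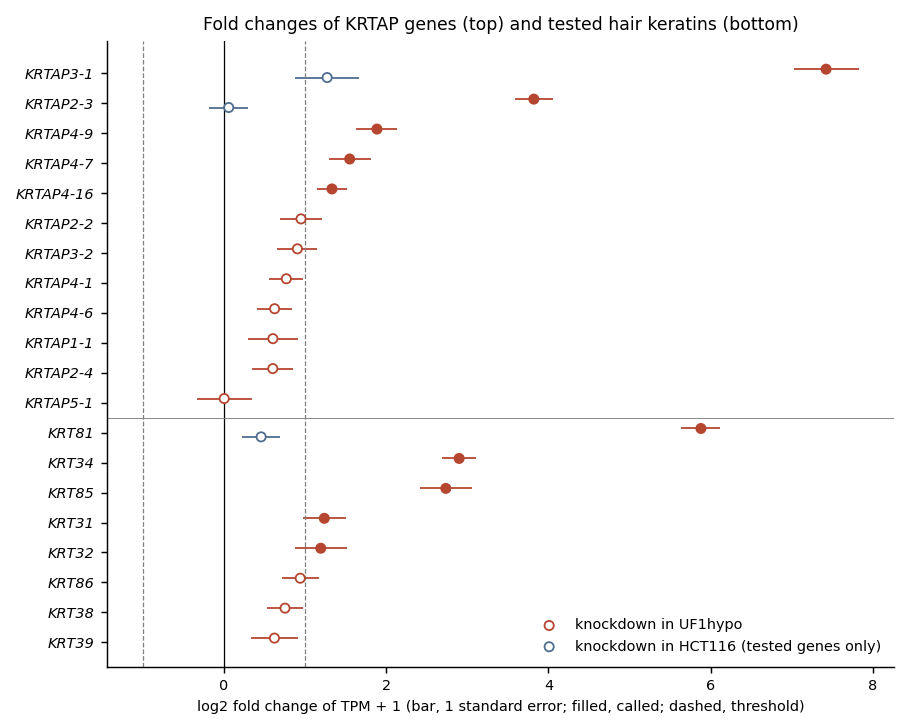
log2 fold changes of TPM + 1 on UHRF1 knockdown in UF1hypo (red) and HCT116 (blue, tested genes only) for the 12 tested KRTAP genes (top) and the 8 hair keratins tested in UF1hypo (bottom). Bars are 1 standard error, filled points were called and dashed lines mark the fold-change threshold. KRTAP3-1 lies at 7.42 and KRT81 at 5.88 in UF1hypo, and no point in HCT116 was called.

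Lists of other hair follicle and epidermal genes were tested in the same way. Of 18 genes of the inner root sheath and hair shaft, 3 were tested in UF1hypo and 2 were called higher, S100A3 (log2 fold change 1.201), a calcium-binding protein of the cuticle, and SELENBP1 (1.09), with a median of 1.09. Of 22 transcription factors and signals of the hair follicle, 17 were tested and 4 called higher, DLX3 (1.73), EDAR (1.65), WNT10A (1.15) and BMP4 (1.04), with a median of 0.50. The share called higher over all tested genes was 7.39%, and DLX3, EDAR and FOXQ1 passed the filter through the UF1hypo shUHRF1 libraries alone, so that they too had to be higher there. DLX3, a homeobox factor of hair differentiation, went from a TPM of 0.521 and 0.248 in UF1hypo shScr to 4.01 and 3.17 in UF1hypo shUHRF1. EDAR, the ectodysplasin receptor, went from 0.635 and 0.356 to 3.94 and 3.44. Of 12 genes of the epidermal cornified envelope, 2 were tested and KRT10 was called higher (1.18), with a median of 0.66.

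HOXC13, the homeobox factor that binds hair keratin promoters, was present in every library, with a TPM of 4.47 and 5.44 (shScr) and 3.88 and 4.95 (shUHRF1) in HCT116 cells, and 4.49 and 4.21 (shScr) and 3.96 and 4.67 (shUHRF1) in UF1hypo cells. Its log2 fold change in UF1hypo was −0.01, and the groups overlapped. FOXN1, another regulator of hair keratins, was listed at 0 in every library. In HCT116, MSX1 (1.06) alone of 14 tested factors and signals was called higher (median −0.12), and none of 4 inner root sheath and hair shaft genes (median 0.32) or 2 cornified envelope genes (median 0.57). The share called over all tested genes was 0.0472% there, with a median of −0.03. This share became 0% when any HCT116 library was left out, so that the call of MSX1 was lost. The interaction called DLX3 (1.64) and EDAR (1.55) of 18 factors and signals, 0 of 5 genes of the inner root sheath and hair shaft and 0 of 2 of the cornified envelope, beside 4.54% of all genes. DLX3 and EDAR entered this test too through UF1hypo shUHRF1 alone, which favours a higher effect in UF1hypo. Between the control groups, S100A3 (1.91) and SELENBP1 (1.79) of 4, MSX2 (1.11) and OVOL1 (1.01) of 15 were called higher, PRDM1 (−2.08) was called lower, and 0 of 2 cornified envelope genes were called, beside 2.59% of all 12856 tested genes called higher and 122 genes called lower.

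Markers of other cell types moved with the KRTAP genes in part. The 5 basal keratinocyte markers summed to a TPM of 15.2 to 17.2 in HCT116 shScr, 10.8 to 12.6 in HCT116 shUHRF1, 43.2 to 44.5 in UF1hypo shScr and 86.9 to 122 in UF1hypo shUHRF1. KRT14 went from 1.13 and 0.941 in UF1hypo shScr to 28.5 and 20.1 in UF1hypo shUHRF1, KRT5 from 2.04 and 0.925 to 16.1 and 10.2, and KRT15, which made up most of the sum, from 39.9 and 42.6 to 76.9 and 56.1. TP63 had 0.0502 and 0.0258 in UF1hypo shScr, compared with 0.286 and 0.309 in UF1hypo shUHRF1, and DSG3 stayed below 0.3. The list of 7 leukocyte markers, which also holds the globin gene HBB, summed to 7.10 to 14.4 in HCT116 groups, 40.6 to 42.8 in UF1hypo shScr and 78.9 to 108 in UF1hypo shUHRF1. CD68 made up most of this sum, with 40.6 and 42.6 in UF1hypo shScr, compared with 107 and 77.7 in UF1hypo shUHRF1. All others were below 1, with PTPRC at most 0.0728, so that the sum describes CD68 and not the list. The 6 fibroblast markers summed to 21.2 to 28.7 in the 6 other libraries and 42.8 to 71.2 in UF1hypo shUHRF1. Among them, COL1A1 went from 22.5 and 28.5 in UF1hypo shScr to 65.5 and 37.7 with shUHRF1, and THY1 from 0.114 and 0.0316 to 5.72 and 4.93, whereas LUM was at 0 throughout. The 4 melanocyte markers summed to 6.12 to 12.6 in all libraries, with TYR at 0 throughout. The part of the keratinocyte, leukocyte and fibroblast markers in the KRTAP values was not tested.

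The nearest testable protein-coding genes beside each cluster were compared with the KRTAP genes. On chromosome 17, KRT34 lies 62.0 kb from the KRTAP cluster, at higher coordinates, and was called higher in UF1hypo (2.90), whereas KRT39, 26.5 kb from its lower end, was not (0.62, limma, adjusted p = 0.208). On chromosome 11p, the neighbours DUSP8 (0.86, adjusted p = 0.0519) and IFITM10 (0.50) were not called, nor were NADSYN1 (−0.24) and XNDC1N (0.42) on chromosome 11q. On chromosome 21, BACH1 (0.02) and TIAM1 (0.20) beside the proximal cluster, TSPEAR (0.71, adjusted p = 0.0511), LRRC3 (0.15) and UBE2G2 (−0.20) at the distal cluster were not called. These neighbours were the nearest genes with a TPM above 1 in a library, and KRT34, KRT39, IFITM10 and TSPEAR reached it in UF1hypo shUHRF1 alone. KRT33A and KRT33B, which lie between the KRTAP cluster and KRT34, were at most 0.291 and were not tested.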

How the data were processed

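RNA was sequenced in paired-end mode from 8 libraries of HCT116 and UF1hypo cells, 2 in each of 4 groups taken from the sample labels. Per the study's methods, the authors cleaned the reads with Fastp, mapped them with HISAT2 2.0.4 to GRCh38 and quantified genes with StringTie 2.1.4. The coverage values deposited by the authors are mean read coverage per base of a gene and are not scaled for depth. The deposited FPKM values are scaled for gene length and aligned bases, and the deposited TPM values for gene length so that each library sums to 1000000. The authors used DESeq2, which was not run here because it needs counts.

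Records of a gene identifier were summed, and identifiers were matched to GENCODE version 44 (60463 of 60649). All libraries entered a single limma 3.58.1 fit (R 4.3.3) on log2(TPM + 1) with the 4 group means and 4 residual degrees of freedom, with variances that follow mean expression, restricted to protein-coding genes that exceeded a TPM of 1 in a library of the contrast. With 2 libraries against 2, an exact two-sided permutation test of a single gene cannot go below a p of 0.33. The fit was tested on simulated data. Depth was taken as aligned bases from the ratio of coverage to FPKM. Identity between transcripts of a family is the share of the shorter GENCODE transcript that matched in a global alignment. With no read counts, no counting error could be given for a gene.

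All KRTAP genes above a TPM of 1 in a library were named. The others were given by counts and ranges, and some of them were named with their values as well. Of the gene lists (hair keratins, inner root sheath and hair shaft genes, hair follicle transcription factors and signals, epidermal cornified envelope genes, and markers of colorectal epithelium, basal keratinocytes, melanocytes, fibroblasts and leukocytes) called genes were named, at most the 4 with the largest change in each list and contrast, with HOXC13 and FOXN1 in addition. KRT32, KRT33A, KRT33B, KRT38 and FOXQ1, and single genes of the marker lists, were named in addition after their values were seen, and genes beside a cluster as its neighbours. The members and lists were chosen with earlier results of these data known. Alternatives changed the scaling, pseudocount, filter, gene set, unit, gene records, variance model, replicate block or libraries. A GC correction and a crossed replicate block were chosen after seeing the data. Other steps used Python 3.11.15 with pandas 2.3.3 and matplotlib 3.10.9. DNA methylation data were not analysed here.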

Additional observations from a re-analysis of the deposited data

Results flagged for a closer look

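A test of the difference between the knockdown effects in UF1hypo and HCT116 (limma, 2 libraries in each group) called 5 of 12 KRTAP genes. Over all 13781 tested genes, 4.54% were called with the more positive effect in UF1hypo. On the log2(TPM + 1) scale the effect in UF1hypo was more positive by 6.15 for KRTAP3-1, by 3.76 for KRTAP2-3, by 1.86 for KRTAP4-9, by 1.58 for KRTAP4-7 and by 1.25 for KRTAP4-16. KRTAP4-9, KRTAP4-7 and KRTAP4-16 were above a TPM of 1 in UF1hypo shUHRF1 alone and entered the test through these libraries. This filter favours a higher effect in UF1hypo, so that the calls of these genes are no support for a difference. Their calls were lost in 9 of 18, 12 of 18 and 11 of 17 alternatives, including each in which an HCT116 or UF1hypo shScr library was left out. KRTAP3-1 lost its call with a pseudocount of 0.1 (adjusted p = 0.0575), and KRTAP2-3 in none of 19 alternatives.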

How the results depend on the processing

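In UF1hypo, the knockdown calls of KRTAP3-1, KRTAP2-3 and KRTAP4-9 held under all 17 alternatives run, with log2 fold changes of 6.88 to 7.90, 3.30 to 4.31 and 1.15 to 4.17, that of KRTAP4-7 in 14 of 17 and that of KRTAP4-16 in 14 of 15. KRTAP4-9, KRTAP4-7 and KRTAP4-16 passed the TPM filter of the main fit through the UF1hypo shUHRF1 libraries alone and had to be higher there. Their calls are therefore no support for a change, however many alternatives kept them. The number of KRTAP genes called there, 5, became 3 with FPKM, 4 with the 4 UF1hypo libraries alone and 4 to 9 when each library was left out. The share of all genes called higher, 7.39%, became 4.93% with FPKM, 3.79% with the 4 UF1hypo libraries alone and 4.36% to 10.39% with a library left out. In HCT116, no KRTAP gene was called in any alternative run. There the share of all genes, 0.0472%, lay between 0% (with a library left out) and 0.401% (with the 4 HCT116 libraries alone). For the difference between the lines, 5 became 2 with quantile normalization, a pseudocount of 0.1, all annotated genes, a mean TPM filter or FPKM. The share of all genes, 4.54%, became 2.59% to 3.95% under these 5 settings. KRTAP2-3 kept that call in 19 of 19 alternatives and KRTAP3-1 in 18 of 19. For the control groups, 0 became 1 (KRTAP3-1) with a pseudocount of 0.1, the 4 control libraries alone or GC correction, and stayed 0 when each library was left out. Between these groups, 2.59% of all genes were called higher without such changes. The log2 fold change of KRTAP5-1 in UF1hypo turned from 0.00 to −0.011 under median-ratio scaling, −0.35 under quantile normalization and −0.25 under GC correction, and lay between −0.49 and 0.15 when each library was left out. That of KRTAP2-3 in HCT116 lay between −0.11 and 0.23 when each library was left out. The causes were not tested. Quantile normalization moved the median of all genes by −0.10 in UF1hypo and −0.14 in the difference.

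The mean number of KRTAP genes above a TPM of 0 was 9 (shScr) and 12.5 (shUHRF1) in HCT116 cells and 12.5 (shScr) and 22.5 (shUHRF1) in UF1hypo cells. Above 0.1 it was 6.5, 8.5, 8 and 19, and above 0.5 it was 2.5, 2.5, 3 and 13. Of all protein-coding genes, 77.5% were above 0.1 in both UF1hypo shUHRF1 libraries, compared with 70.2% to 72.2% elsewhere. Above 0.5 the shares were 69.5% in both and 64.2% to 65.3% elsewhere. Replicates 1 and 2 of UF1hypo shUHRF1 differed, with 22 and 16 genes above 0.1 and 18 and 8 above 0.5. Values below 1 rest on few reads, and genes listed at 0 may lie below the depth reached.

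Replicate numbers did not pair the libraries: deviations of libraries with the same number correlated at −0.40 in UF1hypo, 0.05 in HCT116 and 0.03 in the control groups. With the replicate block, 5 KRTAP genes were called in UF1hypo, 0 in HCT116, 3 for the difference (not KRTAP4-7, adjusted p = 0.0802, or KRTAP4-16, adjusted p = 0.065) and 1 between the control groups (KRTAP3-1, adjusted p = 0.0461), beside 7.13%, 0.00787%, 3.09% and 2.21% of all genes. The crossed pairing in UF1hypo, chosen after seeing the data, called 5, beside 7.61% of all genes called higher.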

Other observations

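KRTAP2-5P, a pseudogene beside the KRTAP2 genes, had a TPM of 0.137 and 1.26 (shScr) and 1.04 and 0.463 (shUHRF1) in HCT116 cells, and 0.405 and 1.02 (shScr) and 3.399 and 2.84 (shUHRF1) in UF1hypo cells, so that both UF1hypo shUHRF1 libraries lay above the other 6. KRTAP5-AS1, the antisense transcript on chromosome 11p, had 0 and 0.459 (shScr) and 0 and 0.366 (shUHRF1) in HCT116 cells, and 1.78 and 0.952 (shScr) and 1.91 and 0.108 (shUHRF1) in UF1hypo cells, and the UF1hypo groups overlapped. KRTAP9-12P, a pseudogene of the KRTAP9 family, was at most 0.305 in any library.

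KRTAP3-1 and KRTAP2-3, the KRTAP genes with the highest TPM, both hold TATAA in the position searched, and 20 of the 33 matched windows of the chromosome 17 cluster hold these letters there, including genes listed at 0 in every library such as KRTAP1-5 and KRTAP4-11.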
